A study of Mus musculus with 8 samples.

Results

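The subject is a set of 36 genes that mark macrophages, the phagocytes of the tissue, read in gonadal white fat of mice that lack Pex5 under the aP2 promoter and of their controls. The members were taken by symbol from a list of known macrophage genes, and each was read from its brightest probe set (by mean over all arrays); all 36 were measured, among 18193 genes. The aP2-Pex5 knockout group (genotype label aP2-Pex5 -/-) and the control group (genotype label wild type) held 4 arrays each, and all 8 samples were gonadal fat from mice aged 10 weeks, untreated and kept under normal conditions. Controls are described as mice of Swiss background, and the knockouts as having no working peroxisomes in fat; Pex5 is the receptor that brings enzymes into the peroxisome. The aP2 promoter belongs to Fabp4, a fatty acid binding protein of adipocytes that macrophages can also express. Arrays carry the replicate numbers of their labels, 6, 8, 9 and 10 for knockout and 1, 2, 3 and 4 for control, and values within a group are listed by rising replicate number. Whether each array stands for a different mouse is not stated, so that the spread behind the p-values may be partly technical.

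Macrophages of fat arise partly in the embryo and partly from blood monocytes, and they clear dying adipocytes, buffer lipid and shape inflammation. Resident macrophages sit around vessels and carry scavenger and lectin receptors such as Mrc1, Cd163, Lyve1, Folr2 and Timd4. Monocytes enter through chemokine receptors such as Ccr2, and macrophages that surround dying adipocytes take on a lipid-handling state marked by Trem2, Gpnmb and Itgax, the last known as CD11c. Visceral fat is a main site of macrophage gathering in obesity.

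Values are log2 expression as the authors deposited it after RMA, and differences are knockout minus control. No member passed the limma test. Of the 36 members, 0 had a Benjamini-Hochberg adjusted p under 0.05, where the share over all 18193 genes was 0.00%, and each adjusted p was 0.999. By the brightest probe set, Adgre1 and Cd68, both lower in knockout, were the 2 members with an unadjusted p under 0.05. Over all genes the share was 2.56%, and 1.38% for genes lower in knockout. Most members were lower in knockout by small amounts: 30 of 36 had a difference below 0, against 53.3% of all genes, and the median difference was -0.24, against -0.0082 over all genes. The differences ran from -0.84 for Timd4 to 0.19 for Ccr2, and in 0 of 36 members were the groups free of overlap, against 1.70% of all genes (1.02% lower in knockout). The median half-width of the 95% interval was 0.46 for the members and 0.25 for all genes. In tissue RNA, fewer macrophages and less of a transcript per macrophage cannot be told apart.

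**Figure D1:**
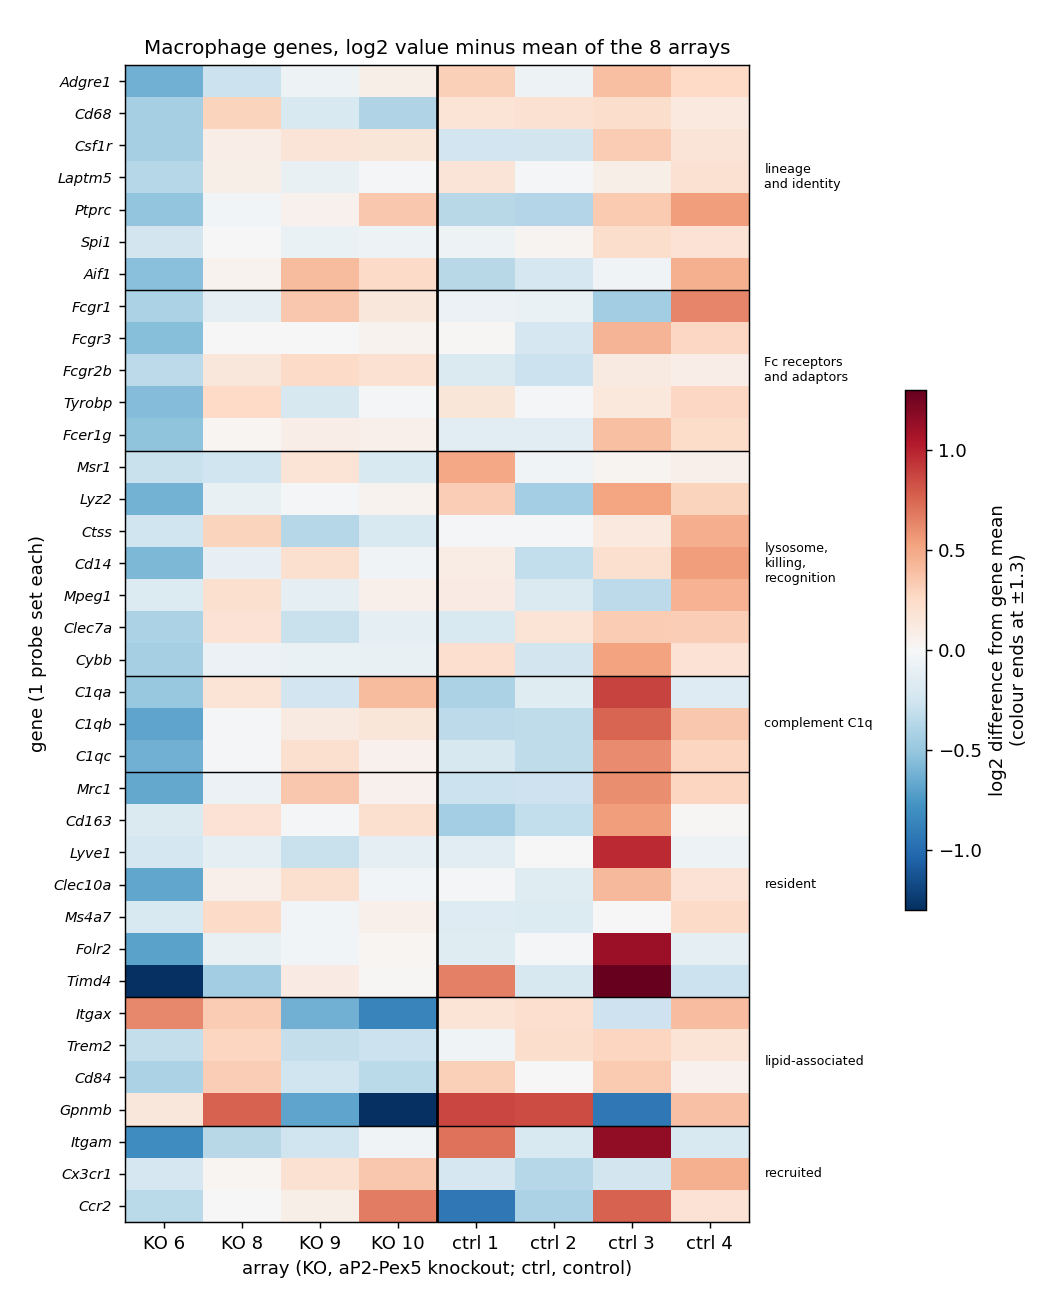
Log2 value of each of the 36 macrophage genes (rows, in 7 groups by role) on each array (columns, 4 knockout left of 4 control), minus the gene's mean over the 8 arrays. Knockout 6 is blue in most rows and control 3 red in most rows, while Itgax and Gpnmb of the lipid-associated group are lowest on knockout 10.

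A single array of each group held most of the extremes, as the colour map of all members shows. The lowest array was a knockout in 31 members (41.4% of all genes), and the highest was a control in 33 (61.2%). Knockout 6 was the lowest of the 8 arrays in 27 of the 36 members, where it was the lowest in 13.7% of all genes. Control 3 was the highest in 21 members, where it was the highest in 15.8% of all genes, and control 4 was the highest in 10. Without knockout 6 the count of lower members was 24 of 36 (50.2% of all genes) and the median -0.12; without control 3 the count was 26 (51.5%) and the median -0.15. Without both arrays, a choice made after seeing the data, 21 of 36 members were lower in knockout (49.1% of all genes) and the median was -0.078. The within-group SD of a member had a median of 0.32, against 0.16 over all genes, and 34 of 36 members lay above the median of all genes.

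The arrays also differed in markers of other cells, whose part in the macrophage values was not tested. The mean of 10 mesothelial markers, after each gene was centred on its mean over the 8 arrays, was -1.0, -0.048, 0.45 and 0.25 in knockouts, against 0.12, -0.043, 0.43 and -0.15 in controls. It was thus lowest on knockout 6, and control 3 stood close to the highest array. Within this list Krt8 and Krt18 did otherwise. They were lowest on control 3, at 8.44 and 8.01, and read 10.37 and 9.66 on knockout 6. The same mean for 9 fibroblast and progenitor markers was -0.20, 0.0039, 0.20 and 0.091 in knockouts, against -0.21, -0.10, 0.21 and 0.0043 in controls, again lowest in knockout on array 6 and highest in control on array 3. Neutrophil markers stood high on control 4, at 1.46, against -0.28 to -0.13 on the other controls, while liver markers reached 2.90 on control 1. Adipocyte markers, which define the labelled tissue, averaged 13.17 to 13.34 in knockouts and 12.98 to 13.32 in controls on the log2 scale over 10 measured genes. A measure of RNA quality, the 3′ minus 5′ difference of the pyruvate carboxylase control probe sets, was 2.10, 1.77, 4.65 and 1.60 in knockouts, against 3.97, 1.59, 2.08 and 4.83 in controls, highest on knockout 9 and control 4. Pex5 itself differed by -0.014 (95% interval -0.29 to 0.27), and the labels do not say which exons were deleted or where its probes lie, so it cannot check the genotype. The lower quartile of the values split the arrays into 2 sets, set A with knockouts 6 and 8 and controls 1 and 2, and set B with knockouts 9 and 10 and controls 3 and 4. In set A 24 of 36 members were lower in knockout (55.0% of all genes) with a median of -0.11. In set B 32 were lower (46.6%) with a median of -0.30, and 23 were lower in both sets (27.5%). Between the sets, the median over members of set A minus set B was -0.34, and 5 of 36 members were higher in set A. The same median and share over all genes were not computed, and the sets were split by these same values. The 2 values thus cannot be read as particular to macrophage genes. The cause of the difference between the sets was not tested.

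By the brightest probe set, Adgre1 and Cd68 were the members with the smallest unadjusted p-values. Dimmer probe sets of Msr1 had smaller ones, with unadjusted limma p-values of 0.0020 and 0.015. Adgre1 encodes F4/80, the surface receptor used to define mouse macrophages, and it read 8.26, 8.61, 8.82 and 8.97 in knockouts, against 9.19, 8.82, 9.27 and 9.14 in controls. Knockouts 6 and 8 lay below every control, knockouts 9 and 10 lay above control 2, and the difference was -0.44 (95% interval -0.82 to -0.068) with an unadjusted limma p of 0.0259. Without knockout 6 the difference of Adgre1 was -0.31, and without both knockout 6 and control 3 it was -0.25. Cd68, a glycoprotein of endosomes and lysosomes, read 9.05, 9.77, 9.28 and 9.09 in knockouts, against 9.66, 9.67, 9.71 and 9.61 in controls. Knockouts 6, 9 and 10 lay below every control and knockout 8 stood above them all, while the controls lay close together; the difference was -0.37 (95% interval -0.71 to -0.019) with an unadjusted p of 0.041. The difference of Cd68 was -0.26 within set A and -0.47 within set B.

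The other genes of macrophage identity differed less. Csf1r, the receptor for the growth factors CSF1 and IL-34 on which macrophages depend, read 11.59, 12.11, 12.19 and 12.18 in knockouts, against 11.78, 11.78, 12.35 and 12.19 in controls. Its groups covered almost the same range, and the difference was -0.0078 (95% interval -0.42 to 0.41). Spi1, which encodes the master factor PU.1 of the myeloid lineage, differed by -0.20 (95% interval -0.41 to 0.0075), with 7.59 to 7.83 in knockouts and 7.77 to 8.06 in controls. Laptm5, a lysosomal protein of blood cells, differed by -0.21, and Ptprc, the CD45 phosphatase of all leukocytes, by -0.068. Aif1, which encodes the actin-binding protein IBA1, differed by 0.084 (95% interval -0.46 to 0.63). Of these 7 genes 6 were lower in knockout, with a median of -0.20, and the count was 4 of 7 without knockout 6.

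**Figure D2:**
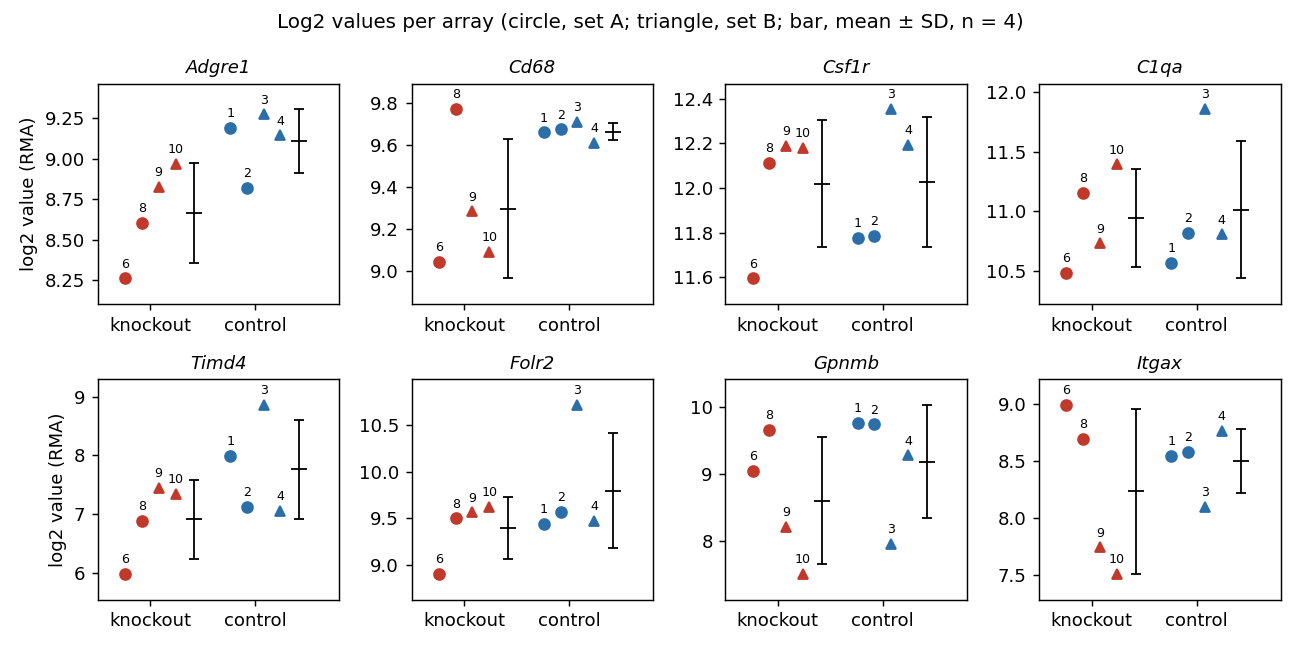
Log2 values (y axis) of 8 macrophage genes on each knockout and control array, labelled by replicate number, with the group mean and SD (n = 4) beside the points. Knockout 6 is lowest for Adgre1, Cd68, Csf1r, C1qa, Timd4 and Folr2 and control 3 is highest for Csf1r, C1qa, Timd4 and Folr2, whereas knockout 10 is lowest for Gpnmb and Itgax.

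The promoters of the members were read for the core sequence bound by PU.1, GAGGAA, on both strands, its complement reading TTCCTC. The table of RefSeq promoters on GRCm38.p6 held 32 promoters of 27 members, each 250 bases before to 50 after a transcript start. The core was present in 18 of these 32 promoters, in 16 of the 27 members, and in 28.3% of 32817 promoters of all genes. The share over all genes is per promoter, and a share per gene was not computed. Promoters of the same gene can overlap, as for Fcgr3 and Clec7a, where the same core was counted in both promoters. A second motif, CACGTG, the E-box read by the lysosomal factors MITF and TFEB, reads the same on both strands and was present in 0 of the 32 promoters and in 7.15% of all. With no E-box among the members, no match of one motif overlapped the other. A match is a description of letters, not of binding. The promoters shown are those of Cd68, of resident markers (Mrc1, Timd4), of lipid-associated markers (Trem2, Gpnmb) and of a recruited marker (Itgam), chosen after their values were seen to span 0 to 3 cores. They run 5′ to 3′, with the core or its complement in capitals. Cd68 lies at chr11:69666121-69666420, minus strand; Mrc1 at chr2:14229164-14229463, plus strand; Timd4 at chr11:46810549-46810848, plus strand. Trem2 lies at chr17:48346151-48346450, plus strand, Gpnmb at chr6:49036268-49036567, plus strand and Itgam at chr7:128062390-128062689, plus strand.
Cd68: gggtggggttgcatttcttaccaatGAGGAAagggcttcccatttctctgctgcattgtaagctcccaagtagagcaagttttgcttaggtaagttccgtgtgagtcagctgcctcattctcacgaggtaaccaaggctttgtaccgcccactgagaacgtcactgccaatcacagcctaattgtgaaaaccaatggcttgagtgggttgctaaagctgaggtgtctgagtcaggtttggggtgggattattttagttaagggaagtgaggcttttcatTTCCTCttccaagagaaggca
Mrc1: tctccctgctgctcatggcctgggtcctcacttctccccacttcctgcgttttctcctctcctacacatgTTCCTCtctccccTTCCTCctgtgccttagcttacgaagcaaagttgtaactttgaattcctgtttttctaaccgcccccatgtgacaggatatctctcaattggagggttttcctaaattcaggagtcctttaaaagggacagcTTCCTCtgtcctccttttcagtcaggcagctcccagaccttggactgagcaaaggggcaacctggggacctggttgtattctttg
Timd4: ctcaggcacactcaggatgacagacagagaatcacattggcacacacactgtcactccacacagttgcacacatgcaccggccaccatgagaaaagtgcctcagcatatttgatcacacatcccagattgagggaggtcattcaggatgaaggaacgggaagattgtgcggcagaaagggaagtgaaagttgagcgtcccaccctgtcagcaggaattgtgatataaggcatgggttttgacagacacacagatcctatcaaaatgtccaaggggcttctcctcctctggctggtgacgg
Trem2: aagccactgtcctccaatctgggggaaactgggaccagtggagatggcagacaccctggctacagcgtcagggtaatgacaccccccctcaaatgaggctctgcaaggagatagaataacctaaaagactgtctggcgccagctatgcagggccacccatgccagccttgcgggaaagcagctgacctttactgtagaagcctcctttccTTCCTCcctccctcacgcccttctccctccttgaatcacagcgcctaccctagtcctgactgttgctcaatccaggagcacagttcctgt
Gpnmb: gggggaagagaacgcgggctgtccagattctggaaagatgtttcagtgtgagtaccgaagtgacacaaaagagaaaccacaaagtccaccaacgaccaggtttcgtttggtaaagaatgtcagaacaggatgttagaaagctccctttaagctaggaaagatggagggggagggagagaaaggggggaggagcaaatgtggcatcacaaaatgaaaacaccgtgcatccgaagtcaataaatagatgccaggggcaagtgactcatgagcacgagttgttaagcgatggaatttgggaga
Itgam: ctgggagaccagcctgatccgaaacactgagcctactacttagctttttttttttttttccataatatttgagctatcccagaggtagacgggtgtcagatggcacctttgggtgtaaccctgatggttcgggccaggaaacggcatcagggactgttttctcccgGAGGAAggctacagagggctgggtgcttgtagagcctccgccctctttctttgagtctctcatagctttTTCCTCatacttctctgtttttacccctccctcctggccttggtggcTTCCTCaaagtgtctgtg
Mrc1 and Itgam held 3 cores each, Cd68 held 2 and Trem2 held 1. Timd4 and Gpnmb held 0.

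Receptors for antibody and their signalling adaptors were lower in knockout in 4 of 5 genes, with a median of -0.17; without knockout 6 it was 3 of 5 with a median of -0.028, and without control 3 as well the median was -0.0081. Fcgr3, the low-affinity activating receptor for IgG, differed by -0.26 (95% interval -0.67 to 0.16), and knockout 6 read 8.53 where the other knockouts lay between 9.08 and 9.13. Its inhibitory counterpart Fcgr2b stood on the other side of 0, with 8.88, 9.36, 9.47 and 9.41 in knockouts, against 9.03, 8.94, 9.33 and 9.30 in controls. The 4 brighter probe sets of Fcgr2b gave 0.13, 0.14, 0.25 and 0.15 and the dimmest gave -0.061; for the brightest the 95% interval was -0.21 to 0.48. Fcgr2b and Fcgr3 lie near each other on chromosome 1, with 1 coding gene between them. Fcgr1, the high-affinity receptor, differed by -0.010 and was highest on control 4, at 7.89, and lowest on control 3, at 6.80. Tyrobp, the adaptor DAP12 through which Trem2 signals, differed by -0.27 (95% interval -0.65 to 0.11), and Fcer1g, the common gamma chain of activating Fc receptors, by -0.17 (95% interval -0.58 to 0.23).

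Genes of killing, digestion and recognition were lower in knockout in all 7 cases, with a median of -0.28, against 6 of 7 without knockout 6 and 5 of 7 within set A. Without knockout 6 and control 3 the count was 7 of 7 and the median -0.14. Cybb, the catalytic subunit of the phagocyte NADPH oxidase, read 9.17, 9.53, 9.51 and 9.51 in knockouts, against 9.82, 9.37, 10.12 and 9.79 in controls. The difference was -0.34 (95% interval -0.71 to 0.021). The other 2 probe sets of Cybb gave -0.43 (95% interval -0.83 to -0.031) and -0.38 (95% interval -0.75 to -0.018). Clec7a, the beta-glucan receptor dectin-1, differed by -0.32 (95% interval -0.69 to 0.048), and Msr1, the class A scavenger receptor, by -0.28 (95% interval -0.62 to 0.062). Msr1 was highest on control 1, at 7.81, and its 4 probe sets differed by -0.31 to -0.22. Dimmer probe sets of Msr1 gave -0.31 (95% interval -0.53 to -0.076) and -0.31 (95% interval -0.48 to -0.15), and the dimmest -0.22 (95% interval -0.55 to 0.12). In the one with the interval -0.48 to -0.15 all knockouts lay below all controls, as in 1.02% of all genes by their brightest probe sets. Lyz2, the lysozyme of myeloid cells, differed by -0.35 (95% interval -0.86 to 0.17); it has a close copy, Lyz1, whose transcript this probe set may also bind. Ctss, the lysosomal protease cathepsin S, differed by -0.27, with 0.041 within set A and -0.58 within set B. Cd14, the co-receptor for bacterial lipopolysaccharide, differed by -0.26 (95% interval -0.75 to 0.23). Mpeg1, the pore-forming perforin-2, differed by -0.014 and ranged over 10.02 to 10.40 in knockouts and 9.85 to 10.64 in controls.

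The 3 chains of C1q, the recognition molecule of the classical complement pathway, are encoded side by side on chromosome 4 and are made mainly by macrophages. C1qa read 10.49, 11.16, 10.73 and 11.39 in knockouts, against 10.57, 10.82, 11.86 and 10.81 in controls. C1qb read 10.03, 10.69, 10.83 and 10.87 in knockouts, against 10.37, 10.38, 11.46 and 11.06 in controls. C1qc read 9.70, 10.32, 10.54 and 10.39 in knockouts, against 10.12, 9.99, 10.94 and 10.61 in controls. All 3 chains were lowest on knockout 6 and highest on control 3, and the groups overlapped on the other arrays. The differences were -0.070 (95% interval -0.76 to 0.62) for C1qa, -0.22 (95% interval -0.87 to 0.44) for C1qb and -0.18 (95% interval -0.75 to 0.39) for C1qc. Without knockout 6 and control 3 all 3 lay on the other side of 0, at 0.36, 0.19 and 0.17.

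The 7 resident markers had a median difference of -0.22, with 5 lower in knockout; without control 3 the median was -0.095, with 4 of 7 lower. Timd4, a receptor for phosphatidylserine on dying cells, read 5.98, 6.89, 7.45 and 7.35 in knockouts, against 8.0, 7.13, 8.86 and 7.06 in controls. Knockout 6 and control 3 were the lowest and highest arrays, 2.88 apart, and the difference of -0.84 (95% interval -1.90 to 0.21) became -0.16 without them. Folr2, the folate receptor beta, read 8.90, 9.50, 9.56 and 9.62 in knockouts, against 9.44, 9.57, 10.71 and 9.47 in controls. Control 3 was the highest and knockout 6 the lowest, the other 6 arrays lay between 9.44 and 9.62, and the difference was -0.40 (95% interval -1.09 to 0.29), against 0.069 without these 2 arrays. Lyve1, a hyaluronan receptor that lymphatic endothelium shares, read 9.57, 9.69, 9.51 and 9.67 in knockouts, against 9.65, 9.81, 10.77 and 9.73 in controls. Control 3 stood far above the other 7 arrays, which lay between 9.51 and 9.81, and the difference was -0.38 (95% interval -0.91 to 0.15), against -0.12 without control 3.

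Mrc1 and Clec10a had the same extreme arrays as Timd4 and Folr2, with narrower ranges, and Cd163 and Ms4a7 did not. Mrc1, the mannose receptor CD206, read 9.71, 10.29, 10.72 and 10.42 in knockouts, against 10.09, 10.10, 10.97 and 10.65 in controls, a difference of -0.17 (95% interval -0.77 to 0.43). Clec10a, a lectin for galactose-type sugars, read 9.73, 10.47, 10.62 and 10.37 in knockouts, against 10.38, 10.24, 10.83 and 10.60 in controls, a difference of -0.22 (95% interval -0.69 to 0.25). Both were lowest on knockout 6 and highest on control 3. Cd163, the receptor for haemoglobin bound to haptoglobin, read 9.78, 10.15, 9.94 and 10.18 in knockouts, against 9.53, 9.65, 10.51 and 9.98 in controls. It was highest on control 3 and lowest on control 1, and differed by 0.097 (95% interval -0.38 to 0.58). Ms4a7, a membrane protein of mature macrophages, read 7.87, 8.31, 8.03 and 8.14 in knockouts, against 7.90, 7.89, 8.07 and 8.32 in controls. Knockout 8 and control 4 were the highest, the groups overlapped, and the difference was 0.042 (95% interval -0.25 to 0.33). Without knockout 6 and control 3, 2 of the 7 resident markers were lower in knockout and the median was 0.078.

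Of the lipid-associated markers, Gpnmb and Itgax had other low and high arrays than most members. Trem2 and Cd84 had knockout 6 and control 3 as extremes, but only by small margins over the next arrays. Gpnmb, a glycoprotein of lipid-laden and phagocytic macrophages, read 9.04, 9.65, 8.20 and 7.50 in knockouts, against 9.76, 9.74, 7.96 and 9.27 in controls. Knockouts 9 and 10 and control 3 were low, the other 5 arrays were high, and the difference was -0.58 (95% interval -1.82 to 0.65). Itgax read 8.99, 8.69, 7.74 and 7.50 in knockouts, against 8.54, 8.58, 8.10 and 8.76 in controls. Here too knockouts 9 and 10 and control 3 were the 3 lowest arrays, and knockout 6, lowest in most members, was the highest of all; the difference was -0.26 (95% interval -1.02 to 0.50). Itgax and Itgam are neighbours on chromosome 7, with 0 coding genes between them, and Itgam was lowest on knockout 6 and highest on control 3. Trem2, the lipid receptor of these macrophages, read 7.86, 8.44, 7.86 and 7.89 in knockouts, against 8.12, 8.40, 8.45 and 8.34 in controls. It was low on 3 knockouts, lowest on knockout 6, and highest on control 3, and on knockout 8 it lay within the control range; the difference was -0.32 (95% interval -0.65 to 0.021). Cd84, a self-binding receptor of the SLAM family, read 7.28, 8.02, 7.44 and 7.34 in knockouts, against 8.0, 7.69, 8.03 and 7.75 in controls. It too was lowest on knockout 6 and highest on control 3, with knockout 8 inside the control range, and the difference was -0.35 (95% interval -0.74 to 0.039).

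All 4 lipid-associated markers were lower in knockout, with a median of -0.33, and the median was -0.44 without knockout 6 and control 3, which for Itgax were a high knockout and a low control. Without knockout 10, the lowest array for Itgax and Gpnmb, the median was -0.25, and the differences were -0.021 for Itgax and -0.22 for Gpnmb. Itgax was 0.28 within set A and -0.81 within set B, and Gpnmb -0.40 and -0.76. The mean of the 4 centred genes was 0.013, 0.42, -0.47 and -0.72 in knockouts, against 0.33, 0.32, -0.15 and 0.25 in controls. The mean of the 7 resident genes was -0.57, -0.035, 0.041 and 0.031 in knockouts, against -0.079, -0.16, 0.74 and 0.039 in controls. The lipid-associated mean minus the resident mean was 0.58, 0.46, -0.51 and -0.75 in knockouts, against 0.41, 0.49, -0.88 and 0.21 in controls. Lipid-associated genes thus stood above resident genes on knockouts 6 and 8 and controls 1, 2 and 4. They stood below the resident genes on knockouts 9 and 10 and control 3, so that both groups held arrays of each kind. The arrays below were all of set B, and the arrays of set A were all above. Set A minus set B was 1.32 for Gpnmb, 0.67 for Itgax, 0.11 for Cd84 and 0.068 for Trem2. The part of the array set in this pattern was not tested.

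**Figure D3:**
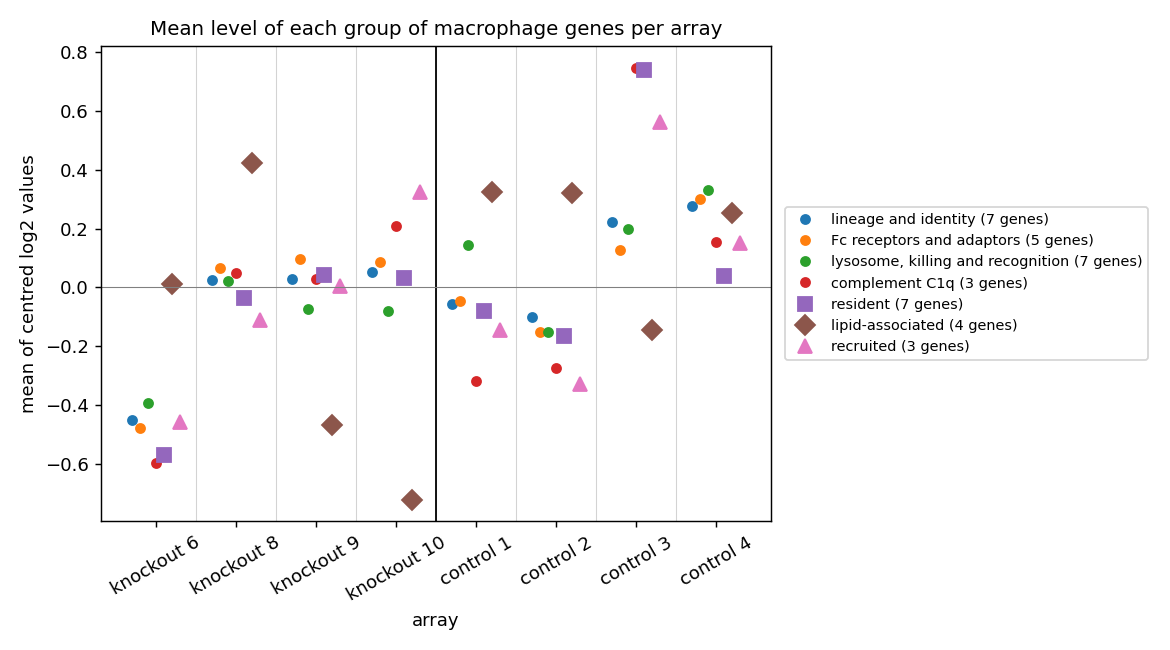
Mean of centred log2 values (y axis) of each of 7 groups of macrophage genes on each array (x axis, knockouts left of the black line, controls right of it). The lipid-associated diamonds stand highest on knockout 8 and lowest on knockout 10, apart from the other groups, which are lowest on knockout 6.

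Markers of recruited cells differed in sign, with 1 of 3 lower in knockout. Itgam, the integrin CD11b of monocytes, macrophages and neutrophils, read 6.36, 6.80, 6.90 and 7.11 in knockouts, against 7.87, 6.96, 8.32 and 6.96 in controls. Controls 1 and 3 were high, the other 2 controls lay within the range of the knockouts, and the difference was -0.73 (95% interval -1.47 to 0.0045) with an unadjusted limma p of 0.0511. Control 4, where neutrophil markers stood high, read 6.96 for Itgam, and the part of neutrophils in the Itgam values was not tested. Ccr2, the receptor for the monocyte attractant CCL2, read 8.35, 8.70, 8.77 and 9.37 in knockouts, against 7.77, 8.28, 9.47 and 8.88 in controls. Knockout 10 and control 3 were high and control 1 low, and the difference was 0.19 (95% interval -0.64 to 1.03). Cx3cr1, the receptor for fractalkine, read 6.24, 6.49, 6.65 and 6.81 in knockouts, against 6.24, 6.09, 6.22 and 6.92 in controls. Control 4 and knockout 10 were the highest, the groups overlapped, and the difference was 0.18 (95% interval -0.27 to 0.63). The median of these 3 genes was 0.18, and it was -0.083 without control 1 and -0.11 within set B. Of the 3 genes 1 lay above the median level of all genes, and dim values may be compressed. Cx3cr1 had a mean of 6.46 over the arrays, and its dimmer probe set gave a difference of 0.036.

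Probe sets of the same member mostly gave the same sign. Of 64 probe sets for the 36 members 51 were lower in knockout. More than 1 probe set was present for 15 members, and in 2 of these, Ccr2 and Fcgr2b, the signs differed. For 7 of the 64 the unadjusted limma p was under 0.05 (2.53% of all probe sets), among them dimmer ones of Msr1 and Cybb. For Ccr2 the probe sets ran from -0.070 to 0.29. The brightest probe set of Aif1, Trem2 and Laptm5 carries a suffix (_s_at or _x_at) by which the maker marks probes that can also bind other transcripts, so these values are less certain.

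**Figure D4:**
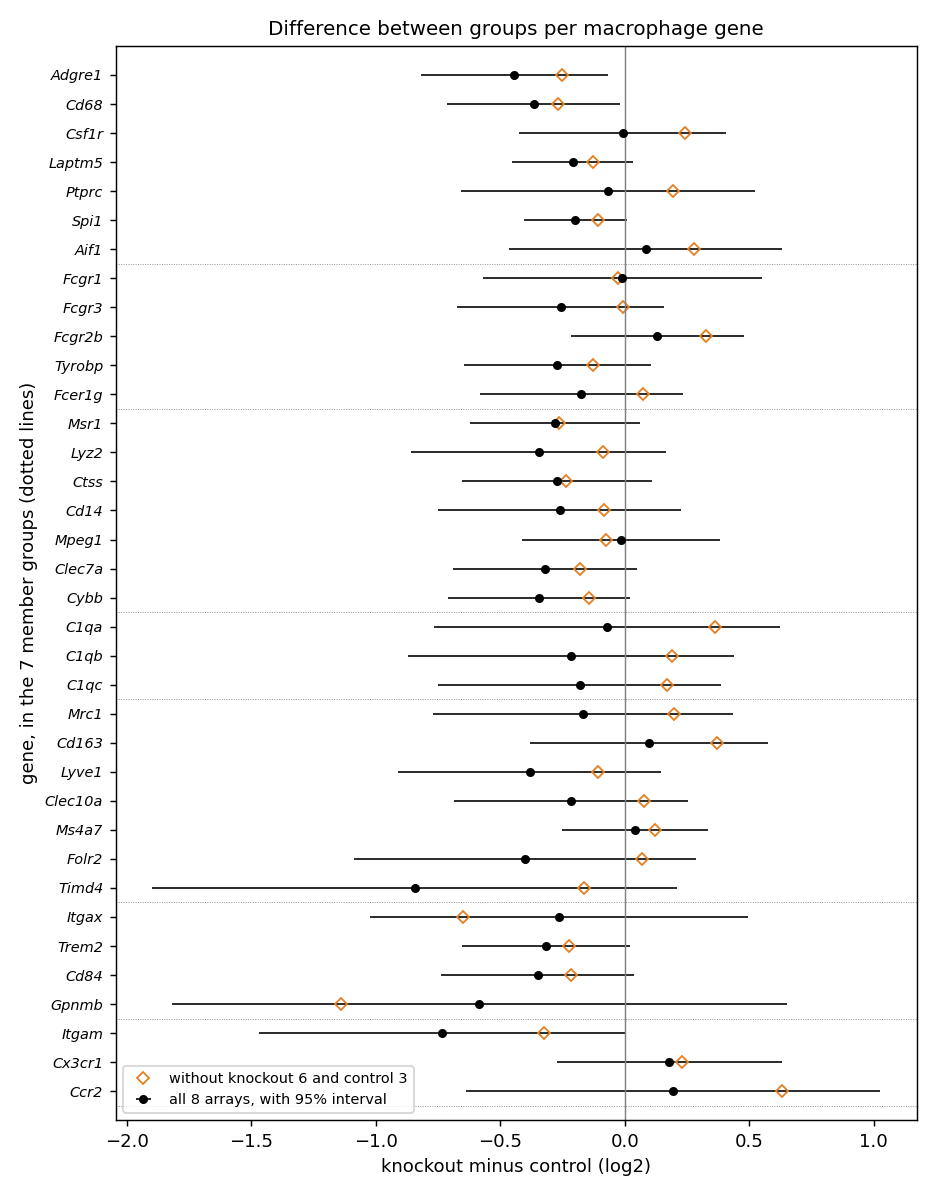
Knockout minus control on the log2 scale (x axis) for each of 36 macrophage genes, with the 95% interval of the limma fit over 8 arrays (black) and the difference without knockout 6 and control 3 (open diamonds). Only the intervals of Adgre1 and Cd68 exclude 0, and the diamonds of the 3 C1q chains and of Mrc1 lie right of 0.

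Further genes of macrophage biology that are no members were read from 5 lists, in which 0 genes passed after adjustment. Of 18 measured genes of lipid-associated macrophages and lysosomes 16 were lower in knockout (median -0.062), against 53.3% of all genes. Among them 1 had an unadjusted p under 0.05 (2.56% of all genes). Lipa, the lysosomal acid lipase of many cell types, read 9.94, 10.05, 9.66 and 9.68 in knockouts, against 10.17, 10.12, 10.15 and 10.16 in controls. The difference was -0.32 (95% interval -0.54 to -0.094), and all knockouts lay below all controls, as in 1.02% of all genes. Mmp12, the macrophage elastase, read 9.16, 9.92, 7.25 and 6.33 in knockouts, against 9.77, 9.82, 9.08 and 9.77 in controls. Its lowest arrays were knockouts 9 and 10 and control 3, as for Itgax and Gpnmb, but control 3 lay close to knockout 6. The difference of Mmp12 was -1.45 (95% interval -3.10 to 0.20). Of 27 measured genes of signalling and transcription 22 were lower (median -0.12), 3 of them at an unadjusted p under 0.05 (2.56% of all genes). Itgb2, the beta chain that pairs with Itgam and Itgax, differed by -0.46 (95% interval -0.81 to -0.12). Tlr13, a sensor of bacterial RNA, differed by -0.45 (95% interval -0.82 to -0.091).

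Activation markers had medians closer to 0 than the members. They were also dimmer, and dim values may be compressed, but the part of level in these medians was not tested. Above the median level of all genes lay 4 of 16 classical and 10 of 15 alternative activation genes, against 30 of 36 members. Of 16 genes of classical activation 13 were lower (median -0.11), where Il1b differed by -0.39 and Cd86 by -0.19. Of 15 measured genes of alternative activation 13 were lower (median -0.15), where Tgfb1 differed by -0.22 and Chil3 by -0.54. Tgfb1 was the 1 gene of that list at an unadjusted p under 0.05 (2.56% of all genes). Of 21 ligands and chemokines that act on macrophages 14 were higher in knockout, with a median of 0.12. Il34, a ligand of the Csf1r receptor, differed by 0.38 (95% interval -0.032 to 0.79), and Ccl6, a chemokine of myeloid cells, by -0.51 (95% interval -1.12 to 0.10), with 12.06 on control 3 and 10.49 to 10.75 in knockouts.

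Markers of other cells and organs were read in the same fit and 0 genes passed in any list. An unadjusted p under 0.05 was found for 1 dendritic cell, 1 mesothelial, 2 female tract and 1 sex-linked gene. In the other lists of this kind it was found for 0 genes, and the share over all genes was 2.56%. Of 11 measured neutrophil markers 10 were lower (Ltf -0.72, S100a9 -1.62), with a mean level of 5.64 to 6.06 in knockouts and 5.77 to 7.51 in controls. Of 8 mast cell markers 6 were lower (median -0.23), with levels of 6.51 to 7.66 in knockouts and 7.19 to 7.76 in controls, lowest on knockout 6 (Cpa3 -0.62, Fcer1a -0.50). For dendritic cells 2 of 9 markers were lower (median 0.031; Itgae -0.49, Batf3 0.12), with levels of 6.70 to 7.01 in knockouts and 6.77 to 7.04 in controls. For T and NK cells 5 of 12 were lower (median 0.015; Il7r -0.32, Gzma -0.44), with levels of 5.60 to 6.22 in knockouts and 5.72 to 6.29 in controls. For B cells 4 of 7 were lower (median -0.0067; Fcrla -0.21, Cd79b 0.24), with levels of 5.26 to 5.86 in knockouts and 5.40 to 5.69 in controls. For mesothelium 7 of 10 were lower (median -0.40; Krt19 0.44, Lrrn4 -0.70), with levels of 7.88 to 9.34 in knockouts and 8.73 to 9.32 in controls. For fibroblasts and progenitors 3 of 9 were lower (median 0.0093; Pi16 0.44, Mfap5 0.19), with levels of 10.08 to 10.47 in knockouts and 10.06 to 10.48 in controls. In endothelium 6 of 11 were lower (median -0.0073; Gpihbp1 0.18, Ramp2 0.056), in smooth muscle 0 of 6 were lower (median 0.37; Lmod1 0.34, Cnn1 0.66) and in adipocytes 4 of 10 were lower (median 0.0089; Lep 0.52, Slc2a4 -0.17). The genes in parentheses are the 2 with the smallest p of their list and need not share its direction. For epididymis and seminal vesicle 4 of 8 were lower (median -0.035, Defb1 -0.25, Svs5 -0.71), and knockout 8 stood apart in 3 of the others. Lcn8 read 11.02 there and 4.39 to 4.75 on the other arrays, with Cst11 at 8.09 and Rnase10 at 8.65 on knockout 8. Svs4 read 7.89 on control 3, 7.01 on knockout 10 and 3.39 to 3.68 on the other arrays. Svs2 read 6.76 on control 3, 5.39 on knockout 10 and 3.12 to 3.26 on the other arrays. Lcn8, Cst11, Rnase10, Svs4 and Svs2 were named after their values were seen. For the female tract 2 of 9 were lower (median 0.33; Oxtr 0.80, Pgr 0.52), for liver 6 of 7 were lower (median -0.97; Apoa2 -1.10, Fgb -0.97) and for red blood cells 2 of 4 genes were lower (median -0.060; Hba-a1 -0.17, Hba-a2 0.16). Of 4 measured sex-linked genes, Uty differed by -0.18 and Xist by -0.46, and Xist read 8.27 on control 1 and 5.55 to 6.20 on the other arrays.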

How the data were processed

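RNA of gonadal fat was measured on 8 Affymetrix arrays. The log2 values were deposited by the authors after RMA, per the submitters' processing notes, and ran from 2.71 to 14.8; no detection calls were used here, and dim values may be compressed. Of 45101 probe sets the 64 control probe sets were left out; 34945 had 1 symbol in the platform annotation of 2016, 932 several and 9160 none. By Entrez number 34741 matched RefSeq genes on GRCm38.p6, with 0 symbols changed.

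Each gene was represented by its probe set with the highest mean, and 18193 genes were compared with limma 3.58.1 in R 4.3.3 (lmFit, eBayes, two-sided, Benjamini-Hochberg over all genes, threshold 0.05), knockout minus control. The step was tested on simulated data. Levels of different probe sets were not compared. Members, lists and tests were chosen with earlier results of these data known. Per-array values were to be given for Adgre1, Cd68, Csf1r, the C1q chains and every resident, lipid-associated and recruited marker. The same held for any other member with an unadjusted p under 0.05. Of other lists, the 2 genes with the smallest p were to be named. Alternatives were a variance trend, a dim-gene filter, 2 renormalisations, other uses of probe sets, array weights, array sets, RNA quality (the 3' minus 5' difference of pyruvate carboxylase control probe sets) and leaving out arrays. The number of arrays limits the precision. Figures were drawn with matplotlib 3.10.9.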

Additional observations from a re-analysis of the deposited data

Results flagged for a closer look

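In groups of 4 arrays, a single array stood apart from the other 3 by Dixon's criterion in 14 of 130 checks, and in 8 of 72 checks of a member in a group. Over all genes the share was 5.43%, and chance gives about 1 in 20.

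Among knockouts, number 6 was low for 5 members. Csf1r read 11.6 on knockout 6 and 12.11 to 12.19 on the other knockouts. Fcgr3 read 8.53, against 9.08 to 9.13, and Fcer1g read 9.36, against 9.91 to 9.97. Cybb read 9.17, against 9.51 to 9.53, and Folr2 read 8.90, against 9.50 to 9.62. Group means of centred values were low on the same array, at -0.45 for identity genes, -0.48 for Fc receptors and adaptors and -0.57 for resident markers. Trem2 stood high on knockout 8, at 8.44, where the other knockouts lay between 7.86 and 7.89.

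Among controls, number 3 was high for Lyve1, at 10.8 where the others lay between 9.65 and 9.81, and for Folr2, at 10.7 where the others lay between 9.44 and 9.57. The lipid-associated mean was low on the same array, at -0.15 where the others lay between 0.25 and 0.33. The mean of neutrophil markers was high on control 4, at 1.46, and that of sex-linked genes on control 1, at 0.62.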

How the results depend on the processing

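Under all 20 alternatives 0 members and 0 genes passed the adjusted threshold, and the smallest adjusted p of a member was 0.552. Of 36 members 19 kept their sign under each alternative and 17 did not. Members with an unadjusted p under 0.05 numbered 2 (2.56% of all genes), and 7 with array medians subtracted (2.81%), 5 with probe sets averaged per gene (2.39%), 7 of 64 with every probe set alone (2.53%), 1 with array weights (5.71%), 4 with the array set as a block (3.86%), 1 within set A (7.02%) and 10 within set B (1.34%). When 1 array was left out they numbered 0 to 7 (1.56% to 8.61%), with 0 without knockout 6 (2.19%) and 0 without control 3 (2.86%), and 7 without knockout 8 (1.70%). With every probe set alone 51 were lower in knockout. The median of recruited markers was -0.11 within set B and ran from -0.083 to 0.29 when 1 array was left out, being -0.083 without control 1; that of resident markers was 0.078 without knockout 6 and control 3, an alternative chosen after seeing the data. The cause of these moves was not tested. Differences that changed sign were as follows. After repeated quantile normalisation it was Csf1r at 0.022. With the mean of probe sets it was Pex5 at 0.011. With array weights they were Csf1r at 0.075, Fcgr1 at 0.016, Mpeg1 at 0.067, C1qa at 0.058 and Ptprc at 0.077. Within set A they were Csf1r at 0.074, Itgax at 0.28, Ctss at 0.041, Mpeg1 at 0.052, C1qa at 0.13, Ptprc at 0.099, Il7r at 0.052 and Cd79b at -0.013. Within set B they were Cd163 at -0.18, Fcgr1 at 0.16, Ms4a7 at -0.11, Ccr2 at -0.11, Batf3 at -0.18, Lrrn4 at 0.046, Defb1 at 0.025, Xist at 0.086 and Pex5 at 0.14. With RNA quality as a covariate they were Csf1r at 0.011, Fcgr1 at 0.10 and Mpeg1 at 0.035. Without knockout 6 and control 3 they were Csf1r at 0.24, Mrc1 at 0.20, Fcer1g at 0.074, C1qa at 0.36, C1qb at 0.19, C1qc at 0.17, Clec10a at 0.078, Ptprc at 0.19, Folr2 at 0.069 and Lrrn4 at 0.079. With 1 array left out, sign changes lay within these ranges: Csf1r from -0.092 to 0.13, Mrc1 from -0.31 to 0.025, Fcgr1 from -0.16 to 0.20, Mpeg1 from -0.13 to 0.13, C1qa from -0.22 to 0.21, Ptprc from -0.21 to 0.10, Ms4a7 from -0.033 to 0.13, Pex5 from -0.12 to 0.056, Aif1 from -0.041 to 0.28, Cd163 from -0.033 to 0.29, Ccr2 from -0.083 to 0.48, Xist from -0.72 to 0.19 and Ramp2 from -0.00018 to 0.10. No paired analysis was possible because the groups share no replicate numbers. The few arrays, 4 a group, and the unknown background of dim probe sets limit what differences could be seen.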

Other observations

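Among genes outside the lists of members, Atp6v0d2, a proton pump subunit of lysosomes and osteoclasts, was chosen after its values were seen. It read 7.60, 8.06, 6.57 and 6.30 in knockouts, against 8.04, 8.24, 7.13 and 7.95 in controls. Its lowest arrays were knockouts 9 and 10 and control 3, as for Gpnmb and Itgax, and its difference was -0.71 (95% interval -1.65 to 0.24) on the log2 scale.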
